A study of Mus musculus with 2 samples.

Results

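The microRNAs miR-128, miR-138 and miR-218 are each encoded at 2 loci of the mouse genome, and these 6 microRNA genes, Mir128-1, Mir128-2, Mir138-1, Mir138-2, Mir218-1 and Mir218-2, are described here with what their separate counts can show. They were chosen by gene name among the 2202 microRNA genes of the count files, through the GENCODE M21 annotation, and all 6 were found. RNA came from hearts of B6CASTF1/J females at 4 days of age, the hybrids of C57BL/6J and CAST/EiJ parents, and the fraction under 30 nt was sequenced from 2 hearts. Animal 3 gave replicate 1 and animal 4 gave replicate 2. No treatment, mutation or other tissue is in the labels, so both belong to 1 group. A single donor entry is given for both animals. The binomial and Fisher p-values below compare these 2 libraries against counting noise alone and do not measure variation between animals.

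A microRNA is cut from a hairpin in a longer transcript, and either arm of the hairpin can be loaded into an Argonaute protein, where the seed, bases 2 to 8, pairs with target messages. miR-128 is known from neurons, where it restrains excitability, and in mouse heart muscle it has been tied to exit from the cell cycle. miR-138 is known from rat neurons as a regulator of dendritic spine size and from zebrafish as a regulator of cardiac chamber patterning. miR-218 is made from introns of the Slit genes, whose secreted proteins signal through Robo receptors, is abundant in motor neurons, and acts on Robo messages in zebrafish heart formation. Reads that match several places in the genome were in no gene's count in these files, so a read that lies wholly within the sequence both copies share could not enter the values below.

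Both copies of each family give the same main mature product, shown here because a read within it fits either copy. RefSeq (GRCm38.p6) lists all 6 hairpins, and their letters and positions were identical to those of GENCODE M21 on mm10. The seeds are in capitals, 5′ to 3′.
mmu-miR-128-3p: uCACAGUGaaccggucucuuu
mmu-miR-138-5p: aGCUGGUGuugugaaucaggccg
mmu-miR-218-5p: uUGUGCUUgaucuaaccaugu
The seeds differ between the 3 families. No other mature sequence in the RefSeq table had the seed of miR-128-3p or of miR-138-5p, and 1 other, mmu-miR-7002-3p, had that of miR-218-5p.

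The opposite arm of each hairpin differs between the copies and is the mature product that could be told apart by locus. These arms are shown with their seeds in capitals.
mmu-miR-128-1-5p: cGGGGCCGuagcacugucuga
mmu-miR-128-2-5p: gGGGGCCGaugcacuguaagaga
mmu-miR-138-1-3p: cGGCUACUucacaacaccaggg
mmu-miR-138-2-3p: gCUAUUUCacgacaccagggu
mmu-miR-218-1-3p: aAACAUGGuuccgucaagcacc
mmu-miR-218-2-3p: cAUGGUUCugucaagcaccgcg
The 5p arms of Mir128-1 and Mir128-2 were 7 edits apart and still had the same seed. The 3p arms of the Mir138 copies were 5 edits apart and those of the Mir218 copies 7 edits apart, and in both of these families the listed seeds differed.

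The hairpins are printed whole because the border of the identical stretch sets which reads can be counted for a copy. Capitals mark the longest stretch that is identical in both copies.
Mir128-1: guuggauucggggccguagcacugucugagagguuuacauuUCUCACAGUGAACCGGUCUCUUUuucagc
Mir128-2: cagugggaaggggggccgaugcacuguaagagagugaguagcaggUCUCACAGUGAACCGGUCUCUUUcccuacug
Mir138-1: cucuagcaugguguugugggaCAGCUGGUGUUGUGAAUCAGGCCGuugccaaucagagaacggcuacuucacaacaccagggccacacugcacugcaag
Mir138-2: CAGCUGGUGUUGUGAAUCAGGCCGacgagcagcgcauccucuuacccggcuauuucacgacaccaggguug
Mir218-1: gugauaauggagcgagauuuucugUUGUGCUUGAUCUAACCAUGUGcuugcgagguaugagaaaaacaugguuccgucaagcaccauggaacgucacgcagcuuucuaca
Mir218-2: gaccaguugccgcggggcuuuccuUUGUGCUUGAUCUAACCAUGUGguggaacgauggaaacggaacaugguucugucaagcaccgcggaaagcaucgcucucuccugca
The identical stretch was 23 nt long in the miR-128 pair, 24 nt in the miR-138 pair and 22 nt in the miR-218 pair. It held the whole shared arm of 21, 23 and 21 nt and very little else. In miR-128 it reached 2 bases before the arm and ended with its last base. In miR-138 it reached 1 base before the arm, which in Mir138-2 is also the first base of the annotated hairpin, and again ended with the arm's last base. In miR-218 it began with the arm's first base and ran 1 base past its end.

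Windows of 20 nt were then compared with every other annotated microRNA gene on both strands. Of these windows, 47 of 51 in Mir128-1, 53 of 57 in Mir128-2, 75 of 80 in Mir138-1, 47 of 52 in Mir138-2 and 88 of 91 in each Mir218 hairpin occurred in no other microRNA gene. Every window inside the shared arm was found in the other copy, and every window inside the opposite arm was specific to its locus. Windows with at least 18 bases of the shared arm that ran past its border were specific in 2 of 4 cases in each Mir128 hairpin, 3 of 4 in Mir138-1, 2 of 3 in Mir138-2 and 3 of 4 in each Mir218 hairpin. The counts of a copy can therefore hold reads of its opposite arm, of the loop and flanks, and of the shared arm with end bases beyond the identical stretch. The deposited counts are per hairpin and do not say which of these were present. Whether end bases beyond the identical stretch were encoded at the locus they matched was not tested.

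**Figure D1:**
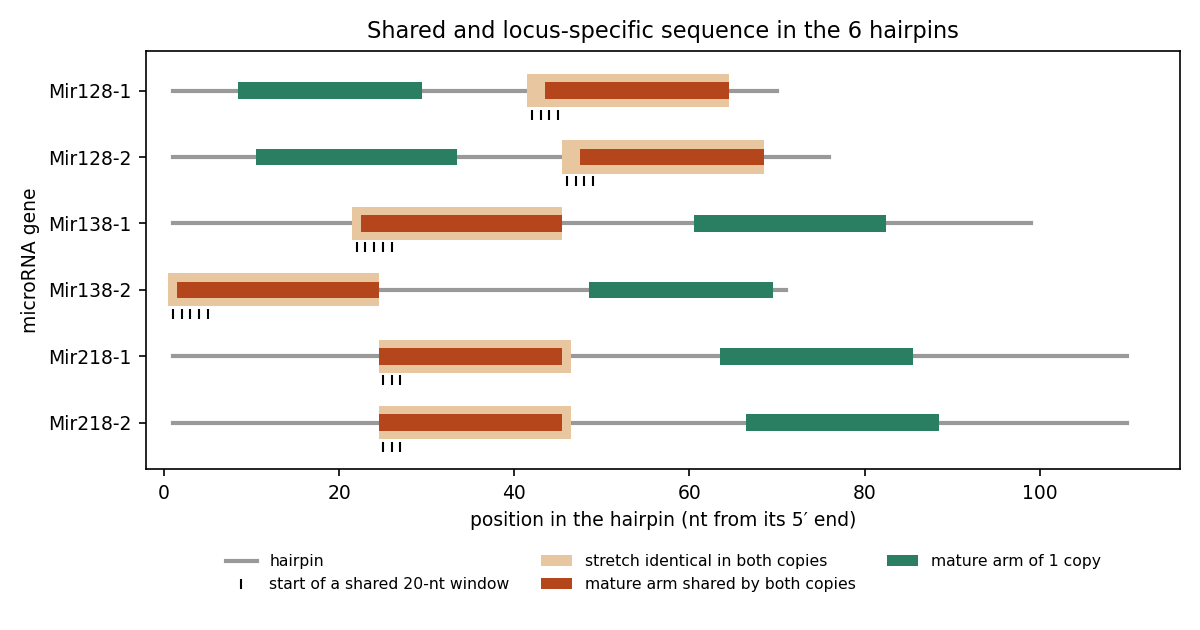
Map of the 6 hairpins, with position in nt from the 5′ end on the horizontal axis and 1 gene per line. Grey lines are the hairpins, pale boxes the stretch identical in both copies (22 to 24 nt), dark boxes the mature arm shared by both copies, green boxes the mature arm of 1 copy, and ticks the starts of 20-nt windows found in another microRNA gene; all ticks lie under the pale boxes.

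The 6 genes lie apart from each other and from other microRNA genes. Mir128-1 (ENSMUSG00000065520.2) is at chr1:128202361-128202430 (mm10, plus strand) in an intron of R3hdm1, and Mir128-2 (ENSMUSG00000065441.2) is at chr9:112118636-112118711 (minus strand) in an intron of Arpp21, the gene of a cAMP-regulated phosphoprotein known from brain. Mir218-1 (ENSMUSG00000065603.1) is at chr5:48223942-48224051 (plus strand) in an intron of Slit2, and Mir218-2 (ENSMUSG00000065583.1) is at chr11:35616816-35616925 (plus strand) in an intron of Slit3. These 4 genes run in the direction of their host. Mir138-1 (ENSMUSG00000065414.1), at chr9:122682876-122682974 (plus strand), and Mir138-2 (ENSMUSG00000065512.3), at chr8:94324311-94324381 (plus strand), lie in no protein-coding gene. Mir138-1 is within an exon of Gm47135, annotated as a transcribed unprocessed pseudogene, and Mir138-2 within an exon of the lincRNA gene C78859, both on the same strand. The nearest annotated microRNA gene was between 165 kb (Mir103-1, from Mir218-2) and 3296 kb away (Gm24273, from Mir128-1).

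The summed counts of microRNA genes were 6417302 in replicate 1 and 5662222 in replicate 2, and 5722879 and 5835632 further reads were multi-mapped and in no gene's count. The label of the tissue was checked with 7 cardiac muscle genes, of which 5 reached 10 counts in both libraries. Together the 7 held 2.10% and 1.92% of the counts, but single members lay apart in both directions, with Mir208a at 10883 and 6019 CPM and Mir499 at 2653 and 7487 CPM. Mir208a, Mir208b and Mir499 held nearly all counts of the 7. Mir1a-1 held 9 and 19 counts, Mir1a-2 136 and 190, Mir133a-1 36 and 43, and Mir133a-2 12 and 2. The Mir1a copies share 28 nt and the Mir133a copies 31 nt, so their counts cover locus-specific reads alone. The erythroid genes Mir451a and Mir144 held 0.0489% in replicate 1 and 0.0126% in replicate 2, and the endothelial gene Mir126a held 5.18% and 7.30%. A count of 0 allowed up to 3 counts, or 0.467 CPM (own-strand counts scaled to a common total of 1e6) in replicate 1 and 0.530 CPM in replicate 2. Intervals and floors cover counting error only, since no molecular identifiers are named.

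All 6 genes had at least 10 counts in each library, as did 373 of the 2202 genes. Together they held 2857 counts in replicate 1 and 1926 in replicate 2, or 0.0445% and 0.0340% of all counts. None had a count on the opposite strand in either library, and the counts without regard to strand were the same as those on the own strand, so the choice of strand did not alter these values. A small RNA read covers a single arm, so CPM does not scale with hairpin length in a simple way, and levels are given both as CPM and as CPM per 100 nt of hairpin where genes are compared.

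Mir128-1 had by far the most counts of the 6 genes. In whole heart tissue, fewer cells of a type and less RNA per cell cannot be told apart. It held 1689 counts (263 CPM) in replicate 1 and 1120 counts (198 CPM) in replicate 2, a mean of 230 ± 46.2 CPM (SD, n = 2), and took place 132 and 136 among all genes. Mir128-2 held 174 counts (27.1 CPM) and 123 counts (21.7 CPM), a mean of 24.4 ± 3.81 CPM, and took place 236 and 242. Mir128-1 lay above Mir128-2 in both libraries, with no overlap. Its share of both copies' counts was 90.7% in replicate 1, with a 95% Clopper-Pearson interval of 89.2 to 91.9, and 90.1% in replicate 2, with an interval of 88.3 to 91.7. The mean share was 90.4% ± 0.393 (SD, n = 2). That was a ratio of 9.71 copy 1 counts to each copy 2 count in replicate 1 and 9.11 in replicate 2. Per 100 nt of hairpin, the levels were 329 ± 66.1 CPM for Mir128-1 and 32.1 ± 5.02 CPM for Mir128-2.

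The Mir138 copies lay close together. Mir138-1 held 403 counts (62.8 CPM) in replicate 1 and 297 counts (52.5 CPM) in replicate 2, a mean of 57.6 ± 7.32 CPM (SD, n = 2). Mir138-2 held 354 counts (55.2 CPM) and 266 counts (47.0 CPM), a mean of 51.1 ± 5.79 CPM. Mir138-1 was slightly higher in each library, but the ranges of the copies overlapped. Its share was 53.2% in replicate 1, with a 95% Clopper-Pearson interval of 49.6 to 56.8, and 52.8% in replicate 2, with an interval of 48.5 to 56.9, and both intervals held equal shares. The hairpins differ in annotated length, 99 nt for Mir138-1 and 71 nt for Mir138-2, and this turned the order round. Per 100 nt, Mir138-1 held 63.4 and 53.0 CPM and Mir138-2 held 77.7 and 66.2 CPM, so that Mir138-2 was higher in both libraries without overlap and the mean share of Mir138-1 was 44.7%. With counts divided by the number of locus-specific windows, the share was 41.4%. Mir138-1 thus had slightly more counts in both libraries, but the intervals did not set an order. Reads within the shared arm are in neither count, so which locus gave more reads is not shown. The order turned round once counts were divided by length or by locus-specific windows, where the construction of the scale sets the change.

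The Mir218 copies had the fewest counts, with Mir218-2 of the Slit3 intron above Mir218-1 of the Slit2 intron. Mir218-1 held 55 counts (8.57 CPM) in replicate 1 and 33 counts (5.83 CPM) in replicate 2, a mean of 7.20 ± 1.94 CPM (SD, n = 2), at places 297 and 302. Mir218-2 held 182 counts (28.4 CPM) and 87 counts (15.4 CPM), a mean of 21.9 ± 9.19 CPM, at places 232 and 260. The copies did not overlap, and both hairpins are 110 nt long, so length did not alter their ratio. Mir218-2 held 76.8% of both copies' counts in replicate 1 and 72.5% in replicate 2. Seen from the other copy, the share of Mir218-1 was 23.2% (95% Clopper-Pearson interval 18 to 29.1) and 27.5% (19.7 to 36.4), which leaves a ratio of Mir218-2 to Mir218-1 between 2.44 and 4.56 in replicate 1 and between 1.75 and 4.06 in replicate 2.

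**Figure D2:**
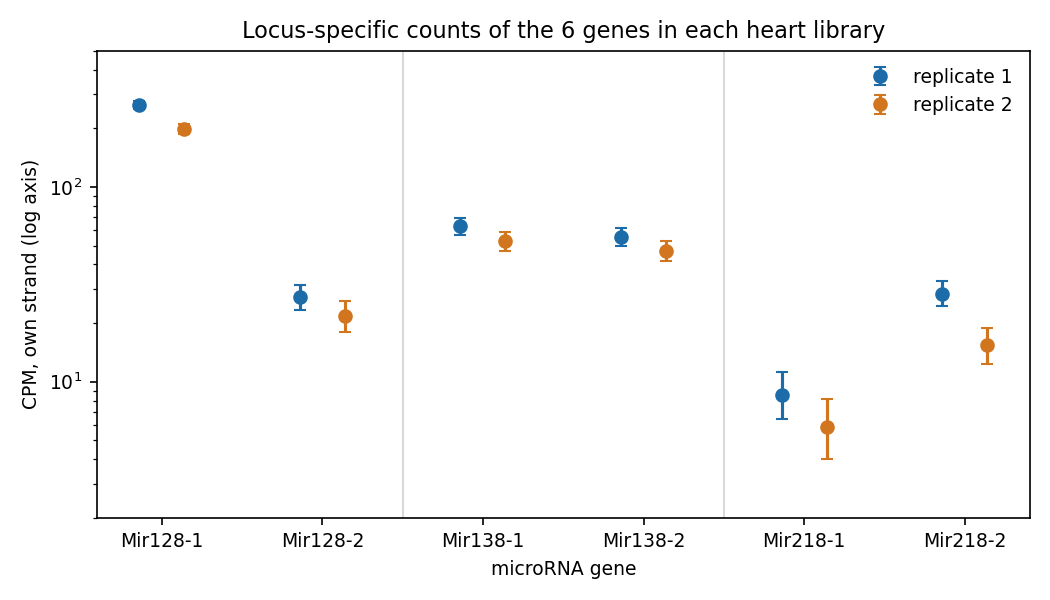
Own-strand CPM of each gene (log axis) in replicate 1 and replicate 2, with exact 95% Poisson intervals of the counts as bars. Mir128-1 stands at 263 and 198 CPM, the Mir138 copies between 47.0 and 62.8 CPM, and Mir218-1 lowest at 8.57 and 5.83 CPM.

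From highest to lowest mean CPM, the order was Mir128-1, Mir138-1, Mir138-2, Mir128-2, Mir218-2 and Mir218-1. Neighbours whose ranges overlapped over the 2 libraries were Mir138-1 with Mir138-2 and Mir128-2 with Mir218-2. Mir128-2 and Mir218-2 changed places, since Mir218-2 was the higher in replicate 1 (28.4 against 27.1 CPM) and Mir128-2 the higher in replicate 2 (21.7 against 15.4 CPM). Per 100 nt of hairpin, the order was Mir128-1, Mir138-2, Mir138-1, Mir128-2, Mir218-2 and Mir218-1, with no overlap between neighbours. The median over the detected genes was 75.2 CPM, which Mir128-1 exceeded in both libraries and the other 5 genes did not reach in either.

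The libraries were compared gene by gene with an exact conditional binomial test on TMM-scaled library sizes, adjusted over all 491 genes with at least 10 counts in the sum. The call needed both an adjusted p under 0.05 and a ratio over 2-fold, and 55 of the 491 genes, or 11.2%, met it. None of the 6 genes was called, by this test or by the exact test of edgeR with 1 common dispersion, which called 0.815% of the genes tested. That dispersion was estimated from the same 2 libraries taken as 1 group. It therefore includes the difference under test, and few genes could be called with it. An unadjusted p under 0.05 was reached by 1 of the 6 in the binomial test and by 0 in edgeR's.

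Among the 6 genes, Mir218-2 had the widest gap between the hearts. Its log2 ratio of replicate 1 over replicate 2 was 0.55 (counting SE 0.19, exact binomial test, adjusted p = 0.00698), short of 2-fold. An adjusted p under 0.05 at any fold was common, at 47.9% of the genes tested. The other 5 did not pass in the exact binomial test with TMM scaling. Their log2 ratios were 0.08 for Mir128-1, −0.01 for Mir128-2, −0.07 for Mir138-1, −0.10 for Mir138-2 and 0.22 for Mir218-1, with counting SEs of 0.06, 0.17, 0.11, 0.12 and 0.32. The median log2 ratio was 0.03 over the 6 genes and −0.02 over all genes tested, and the median size of the ratio without its sign was 0.09 and 0.44. Scaling by total counts raised every log2 ratio by 0.33. On that scale all 6 genes were higher in replicate 1, as were 67.0% of the genes tested, and their ratios lay between 0.23 (Mir138-2) and 0.88 (Mir218-2). An adjusted p under 0.05 in the exact binomial test was then reached by 3 of the 6, Mir128-1 (adjusted p = 2.98e-13), Mir138-1 (0.0383) and Mir218-2 (4.60e-06), each short of 2-fold, against 50.1% of the genes tested.

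**Figure D3:**
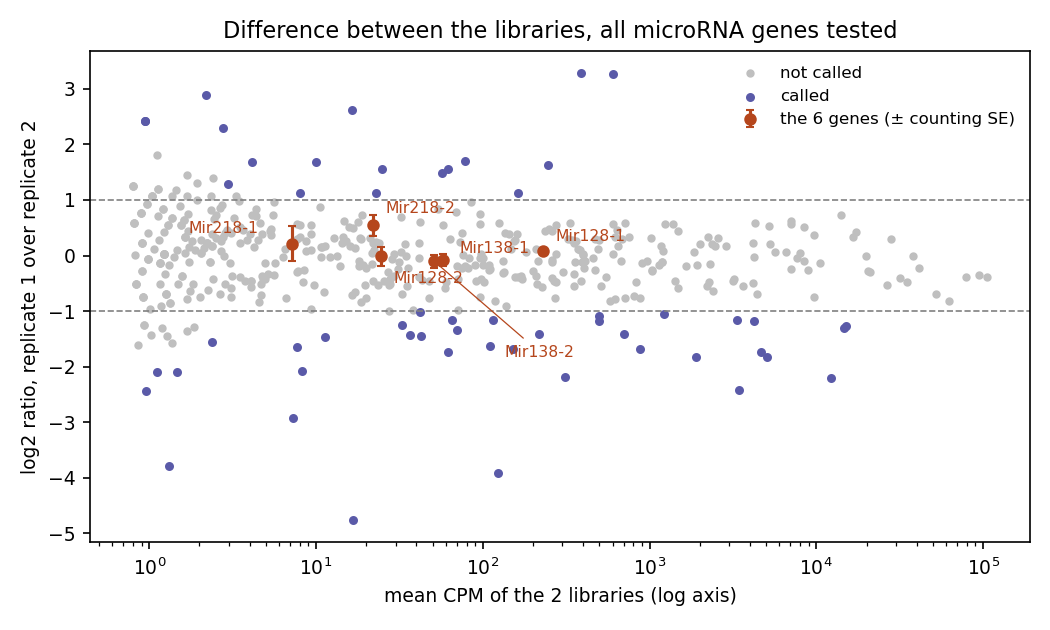
Log2 ratio of replicate 1 over replicate 2 against mean CPM (log axis) for the 491 genes tested, with TMM scaling and dashed lines at 2-fold. The 6 genes (with counting SE) lie between −0.10 for Mir138-2 and 0.55 for Mir218-2, inside the dashed lines.

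The ratio of the copies within a library does not depend on scaling, and it was compared between the libraries with Fisher's exact test. For background, every family in the files with exactly a copy 1 and a copy 2 by symbol was taken, 43 in all, of which 28 had at least 10 counts. The odds of copy 1 against copy 2, replicate 1 over replicate 2, were 1.07 for Mir128 (exact 95% interval 0.829 to 1.37), 1.02 for Mir138 (0.814 to 1.28) and 0.797 for Mir218 (0.470 to 1.36). None of the 3 families passed (Fisher's exact test, two-sided, adjusted over 28 families, p = 0.787, 0.971 and 0.610). Changes of the copy ratio within these intervals, down to 0.470 of its value in Mir218, were compatible with these counts. The smallest change that could be detected was not computed. Of all 28 families, 10.7% were called with an odds ratio over 2, and 42.9% passed the adjusted p at any odds ratio.

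The 3 called families, named after their values were seen, were Mir26a, Mir133a and Mir219a. Mir26a-1 held 30 and 28 counts and Mir26a-2 held 122 and 1298, Mir133a-1 held 36 and 43 and Mir133a-2 held 12 and 2, and Mir219a-1 held 51 and 43 and Mir219a-2 held 0 and 8. Besides Mir128 and Mir138, which also did, 9 families had at least 100 counts for both copies in each library, namely Mir125b, Mir16, Mir181a, Mir24, Mir30c, Mir92, Mirlet7a, Mirlet7c and Mirlet7f. None of these 9 was called, 8 passed the adjusted p (Mir30c did not), and their log2 odds ratios were between 0.07 and 0.66 in size, against 0.09 for Mir128, 0.03 for Mir138 and 0.33 for Mir218. The copy with more counts was the same in both libraries in 26 of the 28 families, Mir128, Mir138 and Mir218 among them.

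A copy that held over 75% of its family's counts in each library was found in 13 of the 25 other families tested, as in Mir128. The longest identical stretch was 22 to 31 nt in the 28 families, with a median of 25 nt, against 23 nt in Mir128, 24 nt in Mir138 and 22 nt in Mir218. Of the 23 other families with mature arms listed in RefSeq for both copies, 22 had an arm in common, so the loss of reads from a shared arm applies to them too.

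**Figure D4:**
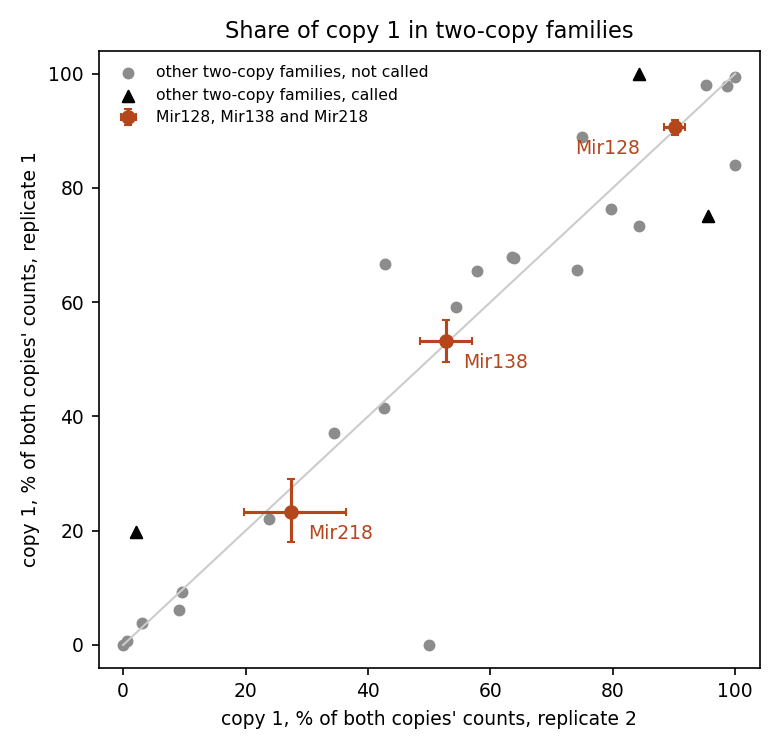
Share of copy 1 in the counts of both copies in replicate 1 (vertical) against replicate 2 (horizontal), for the 28 families tested, with the line of equal shares. Mir128, Mir138 and Mir218 (red, with exact 95% intervals) lie at 90.7% and 90.1%, 53.2% and 52.8%, and 23.2% and 27.5%, and black triangles are the 3 called families.

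Since all 3 microRNAs are known from neurons, 13 other genes known from neural tissue were examined. Of these, 5 had enough counts for the test. The call was met by 1 of them, higher in replicate 1, by 0 in the other direction, and was missed by 4, against 11.2% called among all genes. The median log2 ratio of these 5 was 0.40, beside −0.02 for all genes tested, and Mir219a-1 lay on the side of replicate 2 (−0.27). Of the genes with too few counts, Mir219a-2 (0 and 8 counts) and Mir9-3 (0 and 1) had more in replicate 2. Mir153 (8 and 1 counts) and Mir9-2 (3 and 0) had more in replicate 1. The highest by mean CPM were Mir338, known from oligodendrocytes, Mir137, known from neuronal differentiation, and Mir129-2. Mir338 held 603 and 319 counts, Mir137 held 103 and 22 counts and Mir129-2 held 67 and 32 counts. Mir137 was the gene called (log2 ratio 1.69, counting SE 0.34, exact binomial test, adjusted p = 8.19e-08), while edgeR's exact test gave it an adjusted p of 0.716. Mir338 passed the adjusted p of the exact binomial test (0.00012) at a log2 ratio of 0.40, short of 2-fold, with an adjusted p of 1 in edgeR's exact test. Of 7 neuronal marker genes, 1 reached 10 counts in both libraries and 4 were at 0 in both, namely Mir124a-1, Mir124a-2, Mir124a-3 and Mir9-1, and the sum of the 7 was 106 counts (0.00165%) in replicate 1 and 23 counts (0.000406%) in replicate 2. Mir137, the gene called above, held 103 and 22 of these counts. The 3 copies of Mir124a share stretches of 31 to 32 nt and those of Mir9 share 26 to 33 nt, longer than in Mir128, Mir138 or Mir218, so a count of 0 there covers locus-specific reads alone. Whether nerve or other cells held the counts of the 6 genes was not tested.

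Genes with the most similar levels were found by the distance of log2(CPM + 0.5) over the 2 libraries, leaving out the 6 genes themselves. Mir128-1 was nearest to Mir24-1 (distance 0.18) and Mir350 (0.20), and Mir128-2 to Mir3072 (0.04) and Mir212 (0.18). Both Mir138 copies were nearest to Mir669l and Mir190a, at distances of 0.09 and 0.11 from Mir138-1 and of 0.15 and 0.14 from Mir138-2. Mir218-1 was nearest to Mir3107 (0.13) and Mir181b-1 (0.20), and Mir218-2 to Mir7j (0.16) and Mir302d (0.23). With 2 libraries, this likeness says only that the levels were close.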

How the data were processed

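Small RNA of 2 mouse hearts was sequenced, 1 library each. The authors deposited raw counts per microRNA gene, with no normalization and no pooling. Build mm10 and annotation GENCODE M21 are named in the deposited descriptions. For the aligner and the counter, names and settings: not given in the sources used here. That the columns are counts without strand, on the own strand and on the opposite strand was inferred from their layout. The own-strand column was used; it held 84.0% and 82.8% of stranded counts. Unmapped reads (11.9% and 11.4%), multi-mapped reads (39.6% and 43.2%) and reads outside microRNA genes (4.12% and 3.38%) stayed out of library sizes and tests. CAST/EiJ variants were not examined.

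CPM was computed on own-strand totals. TMM factors (1.12 and 0.891) came from edgeR 4.0.16 in R 4.3.3, over genes with a sum of at least 10 counts. The log2 ratio had 0.5 added to each count. With 1 group there is no condition to test, so the exact binomial test compares 2 libraries with counting noise alone, adjusted by Benjamini-Hochberg. edgeR's exact test used a common dispersion over 373 genes (biological coefficient of variation 0.341), estimated from the same 2 libraries taken as 1 group. Copy ratios used Fisher's exact test. The tests were tested on simulated data. Size factors of DESeq2 1.42.0 were an alternative. Python 3.11.15, scipy 1.17.1, pandas 2.3.3, numpy 2.4.6 and matplotlib 3.10.9 were used.

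Named genes were the 6 genes, the 2-copy families with at least 100 counts for both copies in each library, the 2 genes nearest to each of the 6, and the highest 3 of the neural list. Genes and lists were chosen with earlier results of these data known.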

Additional observations from a re-analysis of the deposited data

How the results depend on the processing

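None of the 6 genes was called in the main test or under the 6 alternatives to it: DESeq2 size factors, total counts, no filter on low counts, the column without strand, a fold threshold of 1.5 and edgeR's exact test. Among all genes tested, the main test called 11.2%. In the order named, the alternatives called 11.6%, 12.4%, 7.12%, 10.8%, 19.8% and 0.815%. Beside these shares, 0 calls among 6 genes says little about them. The 3 copy ratios were not called in either alternative, the column without strand and all pairs with any count. Both left the counts of these copies unchanged, so only the adjusted p could differ. The 1 call in the neural list was Mir137 under both other scalings. With edgeR's exact test, an alternative added after seeing the data, 0 genes of that list were called. Its dispersion includes the difference between the libraries, so it could call few genes. Mir128-1 and Mir138-1 passed the adjusted p, short of 2-fold, with total counts alone among the scalings. Counts per nt of hairpin gave copy 1 shares of 91.1% for Mir128-1 and 44.7% for Mir138-1, and counts per locus-specific window gave 91.4% and 41.4%, where the construction of the scale sets the change. Leaving out each replicate in turn gave shares of 90.1% to 90.7% for Mir128-1, 52.8% to 53.2% for Mir138-1 and 23.2% to 27.5% for Mir218-1. These are the shares of the single libraries given above and no further check. The numbers of locus-specific windows were the same at 18 and 22 nt. Hairpin length less the identical stretch sets the number for any window no longer than that stretch, so window length was no separate check. In a search added after seeing the data, the numbers were also the same in all GENCODE transcripts of other genes. The search of the whole genome was not run, since no genome was given. With total counts, Mir128-2 (0.32), Mir138-1 (0.26) and Mir138-2 (0.23) moved to the side of replicate 1, as did Mir128-2 with DESeq2 size factors (0.03). CPM over all reads, unmapped and multi-mapped included, gave means of 99.9 for Mir128-1, 10.6 for Mir128-2, 24.9 for Mir138-1, 22.1 for Mir138-2, 3.13 for Mir218-1 and 9.52 for Mir218-2. No paired analysis was possible because the design has 1 group.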
